A study of Ogataea parapolymorpha with 16 samples.

Results

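The transcriptome of IMD010, a complex I-deficient strain of the yeast Ogataea parapolymorpha, was compared between fast growth on excess glucose and slow growth under glucose limitation. The 4 samples of this comparison, of 16 in the whole series, were RNA from 2 batch cultures (specific growth rate 0.37 per h) and from 2 glucose-limited chemostat cultures (dilution rate 0.1 per h). They were chosen by strain and culture condition from the labels, and all 5408 genes in the files were considered. The strain descends from CBS11895, carries a 1-base insertion in NUBM, the gene of the Nubm subunit, and was derived from a single colony, so that it is 1 clone. Batch and chemostat cultures carried the same allele. All bioreactors were aerated, held synthetic medium with glucose as the sole carbon source, and were kept at 30°C and pH 5.0. Batch cultures started with 7.5 g glucose per liter, and chemostat cultures were fed medium with 7.5 g glucose per liter. The paper reports residual glucose below its detection limit in the chemostat cultures. Batch cultures were sampled in the mid-exponential phase, with most of the glucose still present. The other samples of the series were IMD010 at lower growth rates and the wild-type strain CBS11895 under the same 4 conditions, of which only its 2 batch and 2 chemostat cultures at 0.1 per h are compared below.

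Complex I is the proton-pumping NADH dehydrogenase of the mitochondrial inner membrane. O. parapolymorpha also has alternative (type II) NADH dehydrogenases, single polypeptides that pass electrons from NADH to ubiquinone without pumping protons. In yeasts, excess glucose is known to repress genes for the use of other carbon sources, such as those of gluconeogenesis, the glyoxylate cycle and peroxisomal beta-oxidation, and fast growth is known to go with high expression of ribosome genes. The comparison shows which of these genes differed between batch and chemostat cultures in cells without a functional complex I. The growth rate and the supply of glucose changed together, so their parts in any difference cannot be told apart.

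Levels are given as FPKM, that is fragments per kilobase of gene scaled to sequencing depth, after adjustment of the libraries by TMM factors (trimmed mean of M values). Between 18512921 and 20898682 reads per library stood behind the 4 samples. A total of 5112 genes had a mean of at least 10 FPKM in at least 1 of the 8 groups of the series and were tested with limma in a single fit of all samples. Fold changes are batch over chemostat on the log2 (FPKM + 1) scale, which understates changes of genes with low levels. FDR values are p-values from limma adjusted over all genes tested. The fit uses 1 spread per gene for all 8 groups, although the 2 chemostat cultures of IMD010 differed more than other replicates, as described below. The median SE was 0.195, against 0.315 in a fit of only the 4 samples. The strict call required an absolute log2 fold change above 2 at an FDR under 0.001, and the broad call one above 1 at an FDR under 0.05. The insertion in NUBM removes no length of the gene, so its transcript level does not check the strain label.

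The 2 chemostat cultures of IMD010 differed from each other more than the cultures of any other group. Taken over genes, the log2 difference of the replicate pair had an SD of 0.88 in these cultures and 0.116 to 0.268 in the other 7 groups, and 1267 of the genes tested differed by more than 1 on the log2 scale. Of the 109 genes that differed by more than 2, 107 were lower in replicate 1. Replicate 2 correlated with the 2 CBS11895 chemostat cultures at 0.1 per h with r = 0.99 and 0.989 across genes, while replicate 1 did so with r = 0.878 and 0.867. With the 2 CBS11895 batch cultures, replicate 1 gave r = 0.851 and 0.863, and replicate 2 gave 0.703 and 0.745. These values describe 5112 genes within single libraries, and genes are not independent replicates.

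The difference between the chemostat cultures followed a difference seen elsewhere in the series. Across genes, replicate 1 minus replicate 2 correlated with IMD010 batch minus CBS11895 batch with r = -0.857 (n = 5112 genes), although no library enters both differences. All 107 genes that were lower in replicate 1 by more than 2 on the log2 scale were higher in IMD010 batch than in CBS11895 batch cultures by more than 1, as were 1015 (19.9%) of all genes tested. Short genes were on the whole lower in replicate 1. Replicate 1 minus replicate 2 had a median of -0.597 for the 94 genes of up to 300 bp and of -0.41 for the 692 genes of 301 to 600 bp. The median was 0.03 for the 1807 genes of 601 to 1200 bp, 0.256 for the 2216 genes of 1201 to 3000 bp and 0.01 for the 303 genes over 3000 bp, and Spearman's rho with length was 0.146 over all genes. Whether length or the state of the RNA had a part in this difference was not tested. Counts and group medians are therefore given with both chemostat cultures and with replicate 2 alone, as are most single genes. With replicate 2 alone the chemostat arm is 1 culture, and the spread behind its FDR values comes from the other groups.

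**Figure D1:**
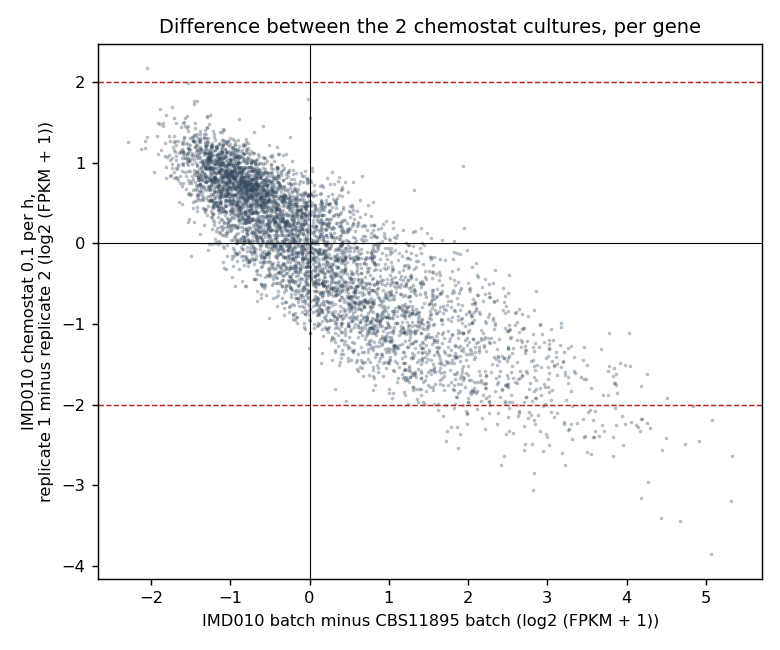
Each point is 1 of the 5112 genes tested. The horizontal axis is the mean level in IMD010 batch minus that in CBS11895 batch cultures, and the vertical axis is chemostat replicate 1 minus replicate 2 of IMD010, both in log2 (FPKM + 1), with dashed lines at a difference of 2 in either direction. The points fall along a descending band (r = -0.857), and the 107 genes below the lower line all lie to the right of 1 on the horizontal axis.

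The genes with a product name that differed most between the 2 chemostat cultures are described by their values, with no test. Transcripts of the splicing factor gene CWC24 (HPODL_01518) stood at 69.1 and 69.0 FPKM in batch cultures, against 3.56 FPKM in chemostat replicate 1 and 65.1 FPKM in replicate 2. The ribosome biogenesis gene ESF1 (HPODL_00950) had 76.6 and 77.0 FPKM in batch cultures, against 4.40 FPKM in replicate 1 and 43.9 FPKM in replicate 2. DNA topoisomerase 1 (HPODL_01299), RUD3 (HPODL_00148) and the pre-60S factor gene REI1 (HPODL_00685) behaved likewise, with 5.56, 7.53 and 104 FPKM in replicate 1, against 43.2, 56.2 and 651 FPKM in replicate 2. In batch cultures these 3 genes had means of 49.9, 64.3 and 699 FPKM. For each of these 5 genes, batch cultures lay closer to replicate 2. In the other direction, the copper transporter gene HPODL_01154 had 448 and 354 FPKM in batch cultures, against 3140 FPKM in replicate 1 and 943 FPKM in replicate 2.

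At the strict call, 20 genes (0.391% of 5112) were higher and 189 genes (3.7%) were lower in batch than in chemostat cultures. With replicate 2 alone, 23 genes (0.45%) were higher and 167 (3.27%) were lower. All 20 and all 189 genes kept at least a broad call in the same direction with replicate 2 alone, and 16 and 153 of them the strict call. At the broad call, 10.6% of the 5112 genes were higher and 642 (12.6%) lower with both cultures, against 308 (6.03%) and 507 (9.92%) with replicate 2 alone, and 233 and 445 genes were called in both fits. With replicate 1 alone, 1081 genes (21.1%) were higher and 982 (19.2%) lower at the broad call. In a fit of only the 4 samples, which has fewer residual degrees of freedom and takes its spread from these samples alone, 0 genes (0%) passed the strict call in either direction, while 25 (0.489%) were higher and 186 (3.64%) lower at the broad call and 1292 had an unadjusted p-value under 0.05. Both batch cultures lay above both chemostat cultures for 1604 genes (31.4%) and below them for 1754 genes (34.3%), together 65.7% of the genes tested.

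For the 189 genes lower at the strict call, the median level was 13.0 FPKM in batch and 140.1 FPKM in chemostat cultures, and 40 of them fell by more than 4 on the log2 scale. For the 20 genes that were higher, the median level was 85.1 FPKM in batch and 13.0 FPKM in chemostat cultures, and 2 rose by more than 4. The annotation used here names a product for 8 of the 20 and 78 of the 189 genes, and 30 of these 78 are named hypothetical proteins. In none of the genes past the strict call did the batch cultures overlap with the chemostat cultures. The thresholds leave little room for overlap, and no gene past the broad call overlapped either. Among all genes tested, 65.7% had no overlap.

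The 3 largest decreases were in genes without a product name in this annotation. HPODL_02349 (chromosome I, 878055 to 878591, coordinates of the CBS11895 RefSeq assembly) had 4.71 and 5.89 FPKM in batch cultures, against 2444 and 3063 FPKM in chemostat cultures (log2 fold change -8.77, SE 0.20, FDR = 1.84e-10 by limma). It ranked 37 among the 5112 genes by its mean level in chemostat cultures and 4957 in batch cultures. HPODL_04537 (chromosome II, 28294 to 30723) had 5.97 and 10.6 FPKM in batch, against 2678 and 1310 FPKM in chemostat cultures, and HPODL_03886 (chromosome V, 194387 to 196381) had 15.1 and 16.3 FPKM in batch, against 2814 and 2160 FPKM. Their log2 fold changes were -7.70 and -7.20 with both cultures and -7.19 and -7.01 with replicate 2 alone. In CBS11895 the same 3 genes changed by -9.59, -5.55 and -6.67.

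Among genes with a product name other than hypothetical protein, the 10 largest decreases included several dehydrogenases and reductases. L-arabinitol 4-dehydrogenase (HPODL_00863) had 0.262 and 0.163 FPKM in batch cultures, against 132 and 70.4 FPKM in chemostat cultures (log2 fold change -6.33, SE 0.23, FDR = 6.78e-09 by limma). The lowest of these levels rested on 4 reads. Sorbose reductase SOU1 (HPODL_00159) stood at 8.21 and 7.35 FPKM in batch and 218 and 340 FPKM in chemostat cultures, a log2 fold change of -4.96 (-5.28 with replicate 2 alone). Diacetyl reductase (HPODL_00988, -4.54) and aryl-alcohol dehydrogenase (HPODL_00007, -3.98) followed, with 57.8 and 70.3 FPKM and 5.60 and 5.97 FPKM in batch cultures, against 1894 and 1200 FPKM and 120 and 93.4 FPKM in chemostat cultures. Ornithine--oxo-acid transaminase (HPODL_00888), an enzyme of ornithine breakdown, had 0.483 and 0.590 FPKM in batch and 25.0 and 21.6 FPKM in chemostat cultures (-3.98). The values of HPODL_00863, HPODL_00988, HPODL_00007 and HPODL_00888 with replicate 2 alone were -5.88, -4.21, -3.80 and -3.88. Both batch cultures lay below both chemostat cultures in each of these genes, which was a condition of their choice.

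A run of 3 neighbouring genes fell by similar amounts. The putative sorbitol dehydrogenase gene HPODL_00131 (chromosome I, 261470 to 262564) had 8.46 and 12.1 FPKM in batch cultures, against 243 and 183 FPKM in chemostat cultures. The NADP-dependent mannitol dehydrogenase gene HPODL_00133 (263849 to 264658) had 1.00 and 3.14 FPKM, against 70.3 and 38.0 FPKM. HPODL_00132 (262725 to 263534), a gene picked with its values known and annotated as a hypothetical protein, had 10.3 and 15.5 FPKM, against 276 and 194 FPKM. The 3 genes are 160 and 314 bases apart and fell by 4.25, 4.09 and 4.20 on the log2 scale, in this order along the chromosome HPODL_00131, HPODL_00132 and HPODL_00133. With replicate 2 alone the values were -4.05, -3.84 and -3.76.

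The largest increase of a gene with a product name was that of the low-affinity glucose transporter HXT3 (HPODL_00453, chromosome III, 514709 to 516337). Its levels were 1933 and 1978 FPKM in batch cultures, against 60.8 and 49.1 FPKM in chemostat cultures (log2 fold change 5.14, SE 0.49, FDR = 1.03e-05 by limma), so that the mean level in batch cultures was 35.6 times that in chemostat cultures. With replicate 2 alone the log2 fold change was 5.29 (FDR = 1.32e-05). A gene without a product name rose further still. HPODL_05331 (chromosome VII, 234136 to 234558) had 202 and 224 FPKM in batch cultures, against 0.671 and 2.62 FPKM in chemostat cultures (6.44, FDR = 1.25e-06), where its lowest value rested on 5 reads.

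The other genes with a product name that rose at the strict call included a transporter, 2 ribosomal protein genes described below, and enzymes. NADP-dependent alcohol dehydrogenase 6 (HPODL_00654) had 8.72 and 8.54 FPKM in batch cultures, against 0.202 and 0.411 FPKM in chemostat cultures, where its lowest value rested on 4 reads (log2 fold change 2.89). The lactam utilization protein lamB (HPODL_01976) had 55.1 and 54.1 FPKM, against 8.74 and 5.32 FPKM (2.82). A putative aminotransferase (HPODL_00051) had 26.4 and 30.3 FPKM, against 3.94 and 4.24 FPKM (2.52), and a ferric and cupric reductase (HPODL_01387) had 26.8 and 27.6 FPKM, against 4.91 and 5.35 FPKM (2.20). All 4 kept the strict call with replicate 2 alone.

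Other transporters did not move as one. Of the 6 sugar transporter genes tested, 1 was higher and 3 were lower at the broad call (median log2 fold change -0.70), and with replicate 2 alone 1 was higher and 2 were lower (-0.16). Over all genes tested, 10.6% were higher and 12.6% lower, and 6.03% and 9.92% with replicate 2 alone. The transporter gene HPODL_01784 had 89.0 and 116 FPKM in batch cultures, against 1045 and 543.99 FPKM in chemostat cultures (-2.88), and HPODL_01994 had 8.72 and 12.7 FPKM, against 47.6 and 46.8 FPKM (-2.06). A row of 3 neighbouring genes on chromosome VI, all annotated as myo-inositol transporters, gave 3 different patterns. HPODL_01129 (66042 to 67895) rose, with 87.3 and 124 FPKM in batch and 11.1 and 5.80 FPKM in chemostat cultures (log2 fold change 3.54, FDR = 2.07e-06). HPODL_01130 (68193 to 70016), which starts 297 bases further on, fell, with 15.0 and 31.3 FPKM in batch and 464 and 282 FPKM in chemostat cultures (-3.99, FDR = 2.07e-06). HPODL_01131 (70141 to 72030), also picked with its values known, had 17.3 and 18.9 FPKM in batch and 20.5 and 14.8 FPKM in chemostat cultures, ranges that overlap (0.05, FDR = 0.797). Reads with more than 1 possible position had been removed by the authors, so levels of similar neighbouring copies are uncertain where their sequences are shared.

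**Figure D2:**
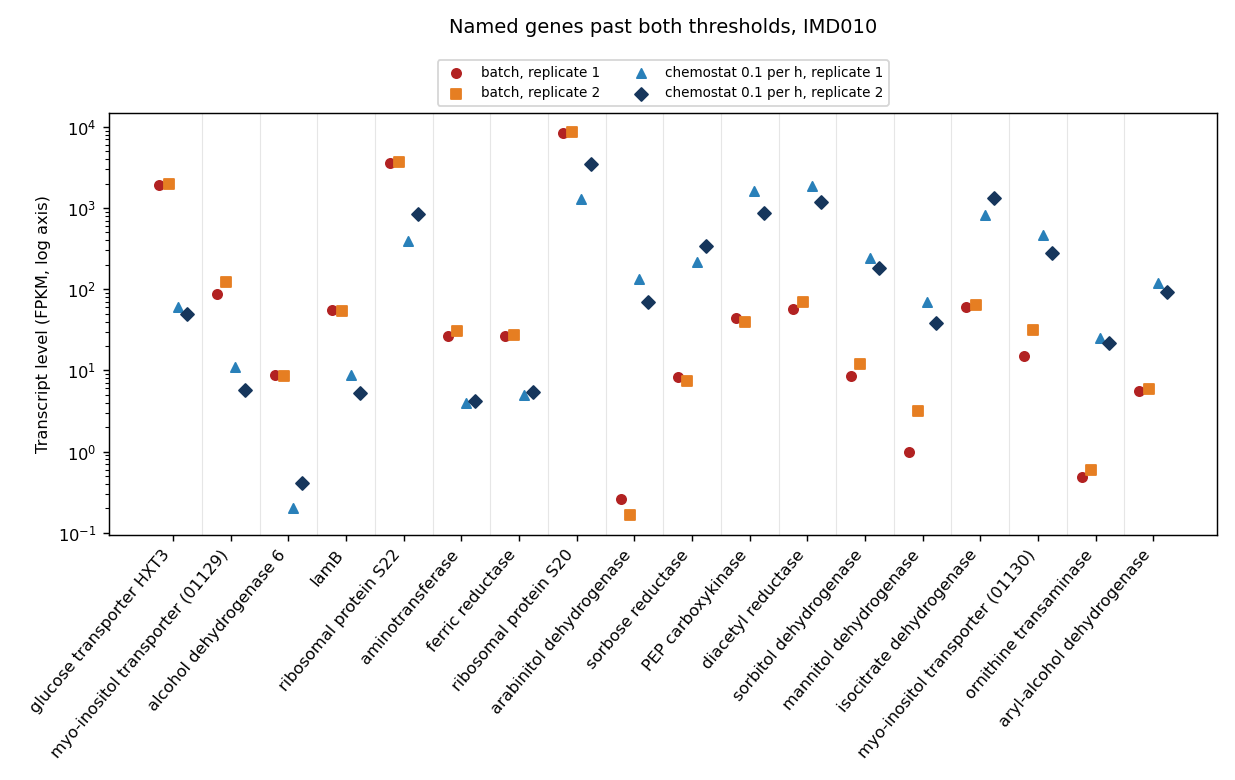
Transcript levels (FPKM, log axis) of the 8 genes that were higher and the 10 that fell furthest at the strict call, among genes with a product name other than hypothetical protein. Each symbol is 1 culture of IMD010, batch cultures to the left and chemostat cultures to the right within each gene. The 18 genes were chosen on the condition that both batch cultures lay on one side of both chemostat cultures.

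Genes for gluconeogenesis and the glyoxylate cycle, with which cells make sugars from smaller carbon compounds, were lower in batch cultures. All 3 members tested fell at the strict call, beside 3.7% of all genes tested. Their median log2 fold change was -2.79 (-2.63 with replicate 2 alone), beside a median of 0.01 over all genes tested. Phosphoenolpyruvate carboxykinase (HPODL_00509), the committed step of gluconeogenesis, had 44.7 and 39.2 FPKM in batch cultures, against 1616 and 863 FPKM in chemostat cultures (-4.79, FDR = 4.57e-07 by limma, and -4.33 with replicate 2 alone). Isocitrate lyase (HPODL_00142), the first enzyme of the glyoxylate bypass, had 2.26 and 2.06 FPKM, against 23.5 and 18.5 FPKM (-2.79). Malate synthase (HPODL_01838), which follows it, had 24.7 and 26.2 FPKM, against 147 and 106 FPKM (-2.25). Both batch cultures lay below both chemostat cultures in these 3 genes, beside 34.3% of all genes tested.

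Fatty acid beta-oxidation and the carnitine shuttle, by which acetyl groups leave the peroxisome, changed in the same direction. Of the 6 genes tested 5 fell at the broad call (median -2.50), and all 6 did with replicate 2 alone (median -2.38), beside 12.6% and 9.92% of all genes tested. The carnitine acetyltransferase genes HPODL_01480 and HPODL_00251 had 31.6 and 37.1 FPKM and 32.8 and 39.6 FPKM in batch cultures, against 522 and 279 FPKM and 396 and 219 FPKM in chemostat cultures, log2 fold changes of -3.44 and -2.999. Acyl-coenzyme A oxidase (HPODL_01143), the first enzyme of peroxisomal beta-oxidation, had 67.1 and 106 FPKM in batch cultures, against 664 and 554 FPKM in chemostat cultures (-2.83). The multifunctional beta-oxidation enzyme HPODL_00315, picked with its values known, had 55.0 and 92.1 FPKM, against 325 and 326 FPKM (-2.18).

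Peroxins are the proteins that build peroxisomes. Of the 9 genes tested 4 were lower at the broad call and none was higher (median -0.83), and 3 were lower with replicate 2 alone (median -0.59), beside 12.6% and 9.92% of all genes tested. PEX10 (HPODL_00444), part of the import machinery, had 17.5 and 16.6 FPKM in batch cultures, against 83.6 and 38.5 FPKM in chemostat cultures (-1.68, and -1.13 with replicate 2 alone). PEX29 (HPODL_00080) had 37.8 and 42.0 FPKM, against 130 and 89.1 FPKM (-1.41, and -1.14). The peroxisomal membrane protein gene PMP47B (HPODL_00941), picked with its values known, had 28.9 and 29.1 FPKM in batch cultures, against 230 and 209 FPKM in chemostat cultures (-2.88). Dihydroxyacetone kinase (HPODL_01039), which acts in methanol assimilation and was the 1 gene of that pathway with a product name here, had 40.7 and 53.7 FPKM, against 179 and 161 FPKM (-1.84).

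The homolog of ADR1 (HPODL_00650), in Saccharomyces cerevisiae a transcriptional activator of glucose-repressed and peroxisomal genes, was itself lower in batch cultures. It had 36.0 and 45.9 FPKM in batch cultures, against 248 and 145 FPKM in chemostat cultures (log2 fold change -2.19, FDR = 4.38e-05 by limma, and -1.81 with replicate 2 alone). In CBS11895 the change was -0.29 (FDR = 0.315), and the difference between the strains was -1.90 (FDR = 0.00103), or -1.52 with replicate 2 alone. The phosphate transporter gene PHO84 (HPODL_00500) had 4.70 and 4.50 FPKM in batch cultures, against 80.7 and 44.1 FPKM in chemostat cultures (-3.44, and -3.01 with replicate 2 alone). ADR1 and PHO84 were both picked with their values known.

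Storage carbohydrate genes were few in the annotation used. Of the 3 tested, 2 were lower at the broad call in both fits, beside 12.6% and 9.92% of all genes tested. Glycogen phosphorylase 1 (HPODL_01450), which releases glucose units from glycogen, had 48.7 and 56.5 FPKM in batch cultures, against 334 and 478 FPKM in chemostat cultures (log2 fold change -2.91, and -3.16 with replicate 2 alone).

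Most genes of central carbon metabolism did not reach the broad call. None of the 6 glycolysis genes tested reached the broad call (median 0.12, and 0.03 with replicate 2 alone), and for their log2 fold changes the range was -0.62 to 0.36. Of 11 genes of the tricarboxylic acid cycle and pyruvate dehydrogenase, 2 were lower in both fits and none was higher (median -0.37, and -0.07 with replicate 2 alone), beside 12.6% and 9.92% of all genes tested that were lower. These 2 were an isocitrate dehydrogenase (HPODL_01327), with 60.02 and 63.4 FPKM in batch and 809 and 1342 FPKM in chemostat cultures (-4.06), and the cytoplasmic malate dehydrogenase (HPODL_01502), with 149 and 198 FPKM in batch and 557 and 391 FPKM in chemostat cultures (-1.44). The product names do not give the compartment or cofactor of HPODL_01327. Complexes III and IV and ATP synthase, which act downstream of the NADH dehydrogenases, had no broad call among 7 genes tested in either fit (median -0.40, and -0.44 with replicate 2 alone). All 7 log2 fold changes were negative with replicate 2 alone, between -0.72 and -0.25.

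Subunits of complex I were lower in batch cultures although the complex was not functional in this strain. Of the 7 essential nuclear-encoded subunits 5 fell at the broad call (median -1.47) with both cultures and 4 (median -1.25) with replicate 2 alone. Of the 22 accessory subunits 15 fell (median -1.16) with both cultures and 17 (median -1.23) with replicate 2 alone, and none of these 29 genes was higher at the broad call. Over all genes tested, 12.6% were lower at the broad call. In the fit of only the 4 samples, the FDR values of the 7 essential subunits by limma were 0.0537 to 0.384.

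In the module that oxidizes NADH, NUBM (HPODL_04625, chromosome II, 171646 to 173112), which binds NADH, had 159 and 213 FPKM in batch cultures, against 441 and 439 FPKM in chemostat cultures (log2 fold change -1.25, SE 0.14, FDR = 2.6e-05 by limma, and -1.25 with replicate 2 alone). Its 2 chemostat cultures were nearly equal. NUHM (HPODL_01287) had 235 and 316 FPKM, against 770 and 739 FPKM (-1.47, FDR = 0.0002). NUAM (HPODL_03689) had 286 and 345 FPKM in batch cultures, against 344 FPKM in replicate 1 and 592 FPKM in replicate 2, so that the groups overlapped (-0.52, FDR = 0.0647, and -0.91, FDR = 0.000293, with replicate 2 alone).

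In the module that passes electrons to ubiquinone, NUIM (HPODL_02101) had 414 and 546 FPKM in batch cultures, against 1607 and 1398 FPKM in chemostat cultures (log2 fold change -1.66, FDR = 1.34e-05). NUGM (HPODL_03393) had 232 and 278 FPKM, against 1546 FPKM in replicate 1 and 650 FPKM in replicate 2 (-1.98, and -1.35 with replicate 2 alone). NUKM (HPODL_02758) had 298 and 402 FPKM, against 1473 and 679 FPKM (-1.53, and -0.97 with replicate 2 alone), and NUCM (HPODL_01297) had 313 and 388 FPKM, against 440 and 662 FPKM (-0.63, and -0.92). For these 4 genes the batch cultures lay below both chemostat cultures, beside 34.3% of all genes tested. The size of the difference depended on the chemostat culture used.

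Among accessory subunits the largest decreases were those of NIAM (HPODL_04805), NUZM (HPODL_02157) and NB4M (HPODL_02851). NIAM had 297 and 382 FPKM in batch cultures, against 2020 and 1215 FPKM in chemostat cultures (log2 fold change -2.22, and -1.85 with replicate 2 alone). NUZM had 327 and 429 FPKM, against 2279 and 1116 FPKM (-2.09, and -1.57). NB4M had 402 and 502 FPKM, against 2620 and 1187 FPKM (-1.97, and -1.40). In all 3 genes replicate 1 was the higher chemostat culture.

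The 3 alternative NADH dehydrogenase genes went the other way. With both chemostat cultures 1 of the 3 was higher at the broad call (median log2 fold change 0.96), and with replicate 2 alone all 3 were (median 1.29), beside 10.6% and 6.03% of all genes tested. NDH2-3 (HPODL_02018) had 118 and 104 FPKM in batch cultures, against 55.2 and 29.1 FPKM in chemostat cultures (1.44, SE 0.22, FDR = 0.000348 by limma). NDH2-1 (HPODL_02792) had 274 and 260 FPKM, against 173 and 108 FPKM (0.96, SE 0.19, FDR = 0.00164), and NDH2-2 (HPODL_00256) had 333 and 334 FPKM, against 225 and 158 FPKM (0.82, SE 0.17, FDR = 0.00223). In all 3 genes both batch cultures lay above both chemostat cultures, beside 31.4% of all genes tested. In each of the 3, replicate 1 was nearer to the batch cultures than replicate 2. In the fit of only the 4 samples, which takes its spread from these samples alone, their FDR values by limma were 0.115 to 0.171.

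**Figure D3:**
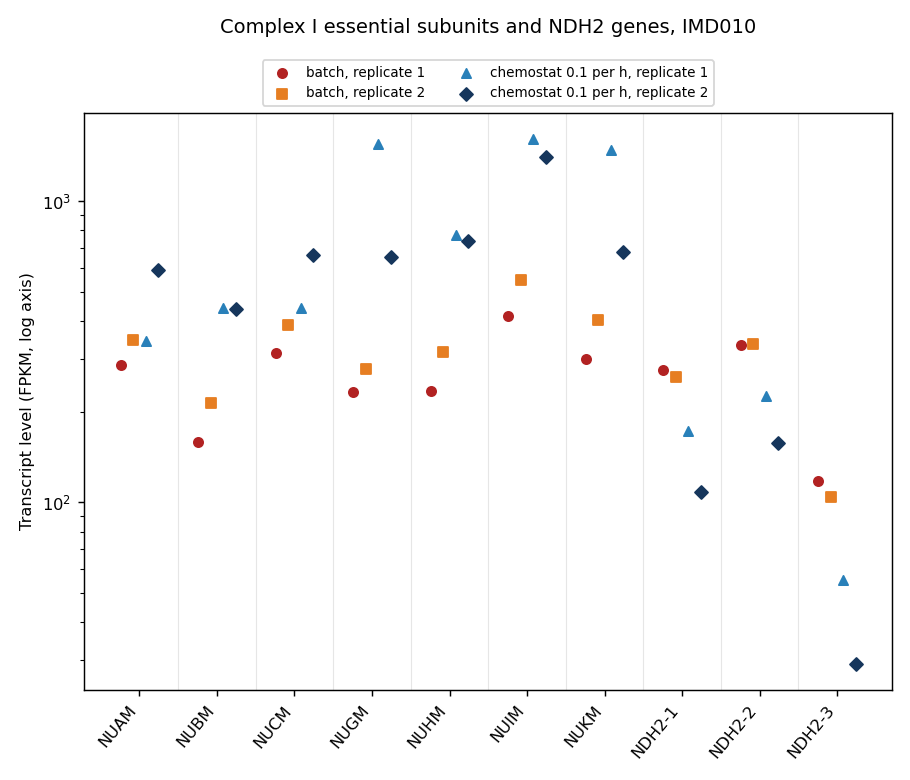
Transcript levels (FPKM, log axis) of the 7 essential subunits of complex I and the 3 alternative NADH dehydrogenases in IMD010, with 1 symbol per culture and batch cultures to the left of chemostat cultures within each gene. Batch cultures lie below the chemostat cultures for complex I, except that NUAM in batch replicate 2 and chemostat replicate 1 overlap (345 and 344 FPKM), and above them for the 3 NDH2 genes.

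Genes for the removal of reactive oxygen species did not share a direction. Of 7 genes tested 2 were lower at the broad call and none was higher (median 0.04), and with replicate 2 alone 1 was higher and 2 were lower (median 0.05), beside 12.6% lower and 10.6% higher of all genes tested with both cultures. The thiol-specific peroxiredoxin AHP1 (HPODL_00398) had 187 and 216 FPKM in batch cultures, against 1568 and 653 FPKM in chemostat cultures (log2 fold change -2.33, and -1.70 with replicate 2 alone). HPODL_03354, the ortholog of cytochrome c peroxidase, had 158 and 178 FPKM, against 672 and 592 FPKM (-1.90, FDR = 2.26e-06 by limma). Peroxiredoxin TSA1 (HPODL_00527) had 1204 and 1293 FPKM, against 898 and 508 FPKM (0.88, FDR = 0.00589), and 1.30 with replicate 2 alone.

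The 2 superoxide dismutase genes differed from each other. HPODL_01412, the more abundant per length, had 2512 and 2745 FPKM in batch cultures, against 2647 and 2543 FPKM in chemostat cultures (log2 fold change 0.02, FDR = 0.924). HPODL_01414 had 156 and 161 FPKM, against 64.0 and 99.4 FPKM (0.98, FDR = 0.00104, and 0.67 with replicate 2 alone). HPODL_03894, a gene of the catalase and superoxide dismutase list without a product name here, had 219 and 211 FPKM, against 237 FPKM in replicate 1 and 139 FPKM in replicate 2, which overlap (0.24, FDR = 0.31, and 0.62, FDR = 6.44e-05, with replicate 2 alone). The peroxiredoxin gene HPODL_00254 had 159 and 159 FPKM, against 111 and 214 FPKM (0.04, FDR = 0.884, and -0.43, FDR = 0.0026, with replicate 2 alone).

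Cytosolic ribosomal protein genes were higher in batch cultures. Of 29 genes tested 26 rose at the broad call (median log2 fold change 1.58) and none fell, and with replicate 2 alone 24 rose (median 1.25), beside 10.6% and 6.03% of all genes tested. All 29 log2 fold changes were positive in both fits. The gene for ribosomal protein S22 of the small subunit (HPODL_01192) had 3568 and 3642 FPKM in batch cultures, against 392 FPKM in chemostat replicate 1 and 846 FPKM in replicate 2 (2.64, FDR = 7.94e-05 by limma, and 2.09 with replicate 2 alone). S20 (HPODL_00310) had 8373 and 8690 FPKM in batch cultures, the seventh highest mean level of all genes tested there, against 1275 and 3510 FPKM in chemostat cultures (2.01, and 1.28 with replicate 2 alone). L31 of the large subunit (HPODL_00596) had 4499 and 4549 FPKM, against 397 and 1840 FPKM (2.40, and 1.30 with replicate 2 alone). Replicate 1 was the lower chemostat culture in 23 of the 29 genes, beside 2395 of all 5112 genes tested.

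Of 44 ribosome biogenesis genes tested 27 rose at the broad call (median 1.12) with both cultures and 14 (median 0.79) with replicate 2 alone, and 12 rose in both fits. Over all genes tested, 10.6% and 6.03% were higher. None fell in either. MAK21 (HPODL_00936), a nucleolar assembly factor of the large subunit, had 60.1 and 52.6 FPKM in batch cultures, against 6.77 and 26.4 FPKM in chemostat cultures (log2 fold change 1.97, and 1.06 with replicate 2 alone). A putative pre-rRNA-processing gene (HPODL_01727) had 69.3 and 60.3 FPKM, against 4.05 and 29.8 FPKM (2.40, and 1.09). Of 20 mitochondrial ribosomal protein genes 6 rose with both cultures (median 0.77) and none with replicate 2 alone (median 0.41), when all 20 values were positive but none reached 1. The 54S ribosomal protein L15 gene (HPODL_00643), with 317 and 302 FPKM in batch cultures, against 52.9 and 168 FPKM in chemostat cultures, gave 1.70 with both cultures and 0.88 with replicate 2 alone.

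The remaining gene groups had few members and few calls with both cultures, beside 10.6% higher and 12.6% lower over all genes tested. Of 19 aminoacyl-tRNA ligase genes 2 rose and 1 fell with both cultures, and glutamine--tRNA ligase (HPODL_00796) rose in both fits, with 151 and 150 FPKM in batch cultures, against 49.2 and 72.0 FPKM in chemostat cultures (log2 fold change 1.33). Of 10 chaperone genes, HSC82 (HPODL_01825), an Hsp90 chaperone, rose, with 1128 and 1195 FPKM, against 483 and 555.1 FPKM (1.16), and the heat shock protein gene HPODL_02027 fell, with 47.0 and 50.9 FPKM, against 158 and 121 FPKM (-1.48). None of 8 proteasome genes was called, and of 15 DNA replication genes 1 was called with both cultures and none with replicate 2 alone. Amino acid permeases changed sign between the fits, with a median of -0.43 over 9 genes with both cultures and of 0.32 with replicate 2 alone. Of the 5 autophagy genes 1 was lower with both cultures and none with replicate 2 alone. For the 8 histone genes the median was 0.37 with both cultures, with none called, and -0.13 with replicate 2 alone, with 1 lower. Replicate 1 was the lower chemostat culture in all 8 histone genes, beside 2395 of all 5112 genes tested.

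**Figure D4:**
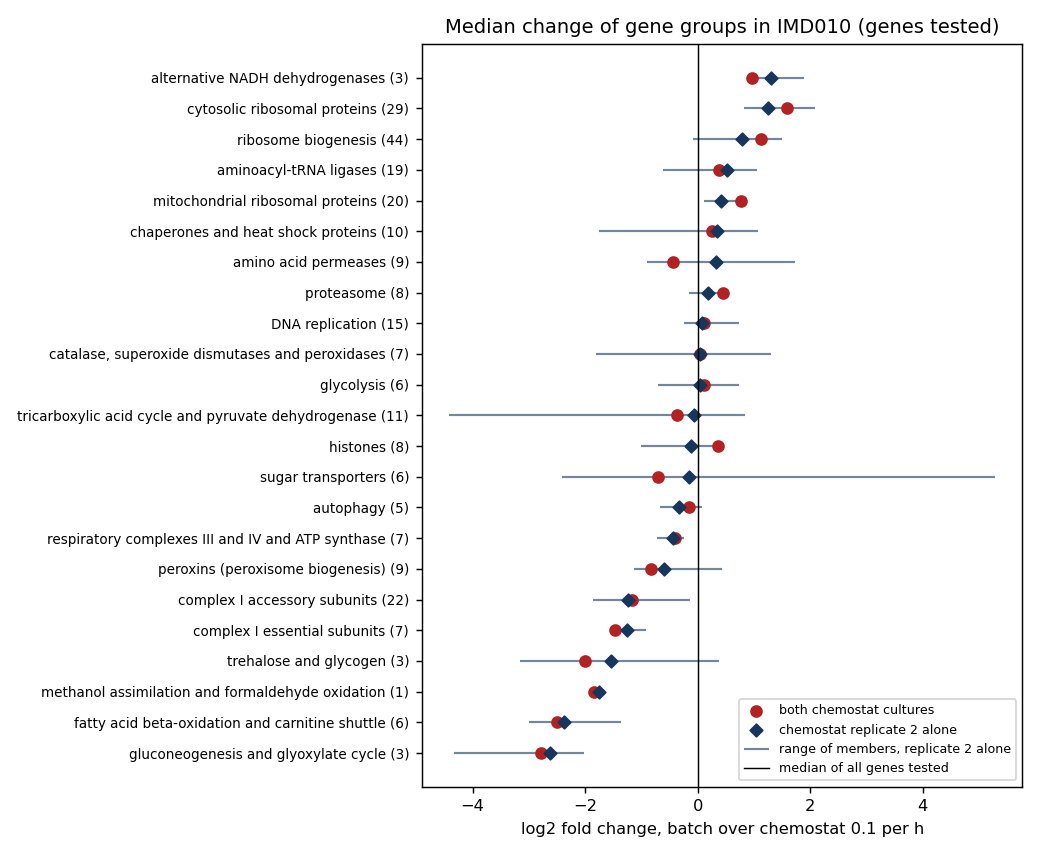
Median log2 fold change, batch over chemostat, of each gene group in IMD010, with the number of genes tested in parentheses. Circles use both chemostat cultures, diamonds replicate 2 alone, thin lines span the members with replicate 2 alone, and the vertical line is the median of all genes tested (0.01). Gluconeogenesis, beta-oxidation and both complex I groups lie left of the line and cytosolic ribosomal proteins and NDH2 genes right of it under both, while histones and amino acid permeases change side.

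The same contrast in CBS11895 called 998 genes (19.5%) higher and 1273 (24.9%) lower at the broad call, and 183 (3.58%) higher and 537 (10.5%) lower at the strict call. Of the 20 genes strictly higher in IMD010 batch cultures, 11 were strictly higher in CBS11895, which is 11 of 20 and 11 of 183. Of the 189 strictly lower genes, 114 were strictly lower in CBS11895, which is 114 of 189 and 114 of 537. All 189 had a negative log2 fold change in CBS11895, and 18 of the 20 had a positive one. The median CBS11895 change over all genes tested was 0.025. Over all genes tested, the fold changes of the 2 strains correlated with r = 0.186 with both IMD010 chemostat cultures and with r = 0.546 with replicate 2 alone (n = 5112 genes, no shared library).

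**Figure D5:**
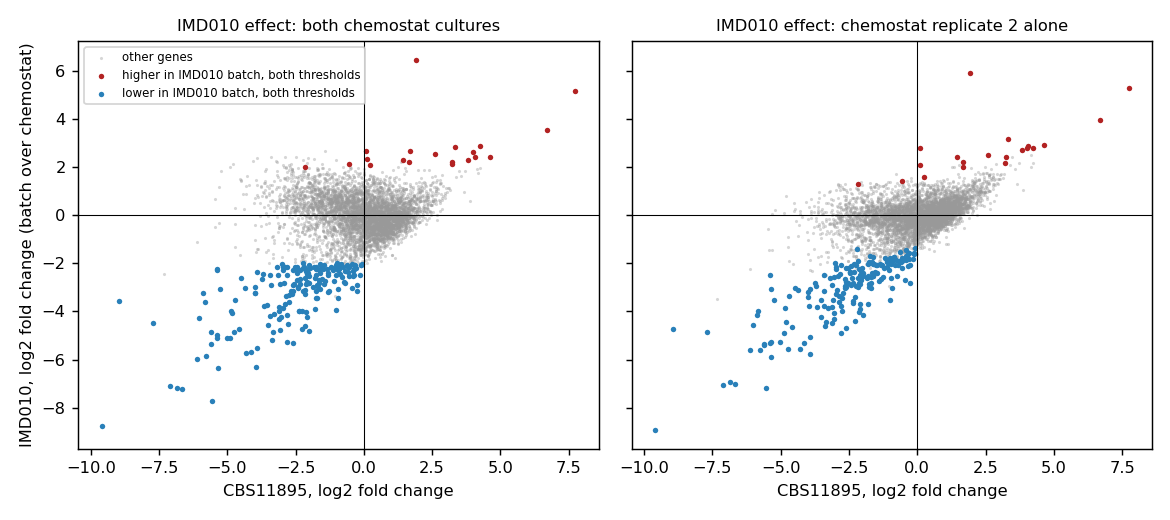
Each point is 1 of the 5112 genes tested, with its log2 fold change, batch over chemostat, in IMD010 on the vertical axis (left, both chemostat cultures, and right, replicate 2 alone) against that in CBS11895 on the horizontal axis. Red and blue points are the 20 genes higher and the 189 genes lower at the strict call in IMD010. All 189 blue points lie at negative and 18 of the 20 red points at positive values in CBS11895. Over all genes r is 0.186 in the left panel and 0.546 in the right panel.

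Whether the effect of batch growth differed between the strains was tested as the IMD010 effect minus the CBS11895 effect. At the broad call the difference was positive for 1349 genes (26.4%) and negative for 1529 (29.9%), and with replicate 2 alone for 1031 (20.2%) and 908 (17.8%), of which 1027 and 907 were called in both fits. Without TMM factors the split was 1701 positive and 792 negative, and the median difference over all genes was 0.21 in place of -0.24. In CBS11895 the effect itself moved with gene length, with a median of -1.62 for genes of up to 300 bp, of -1.16 for 301 to 600 bp and of 0.55 for genes over 3000 bp. With IMD010 and replicate 2 alone the medians of these classes were -0.17, 0.02 and 0.09. The part of gene length in the differences between the strains was not tested beyond removal of a smooth length trend, after which 1220 genes were positive and 1395 negative.

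The 3 alternative NADH dehydrogenases rose less in IMD010 than in CBS11895. NDH2-1 (HPODL_02792) had 274 and 260 FPKM in IMD010 batch and 173 and 108 FPKM in IMD010 chemostat cultures, against 438 and 389 FPKM in CBS11895 batch and 31.4 and 31.8 FPKM in CBS11895 chemostat cultures. The difference of the effects was -2.71 (SE 0.27, FDR = 0.000147 by limma), and -2.37 (FDR = 2.7e-07) with replicate 2 alone. NDH2-1 was thus higher in IMD010 than in CBS11895 chemostat cultures and lower in IMD010 than in CBS11895 batch cultures. For NDH2-2 (HPODL_00256) and NDH2-3 (HPODL_02018) the differences were -1.03 and -1.25, and -0.78 and -0.80 with replicate 2 alone, all at an FDR under 0.05. Of the essential complex I subunits, NUGM (HPODL_03393) and NUKM (HPODL_02758) differed between the strains by more than 1 with both cultures (-2.09 and -1.42). With replicate 2 alone NUGM gave -1.46 and NUKM -0.86. The other essential subunits had no broad call, and NUAM and NUCM had positive differences (0.56 and 0.30). Of the 22 accessory subunits, 8 had a positive and 4 a negative difference at the broad call (median 0.52). Over all genes tested, 26.4% were positive and 29.9% negative. NUBM (HPODL_04625) fell further in IMD010, by a difference of -0.71 (FDR = 0.00628) with both cultures and of -0.70 (FDR = 0.00426) with replicate 2 alone.

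HXT3 (HPODL_00453) and the myo-inositol transporter gene HPODL_01129 rose in both strains and less in IMD010. HXT3 stood at 1933 and 1978 FPKM in IMD010 batch cultures and 3953 and 4003 FPKM in CBS11895 batch cultures, and at 60.8 and 49.1 FPKM and 22.6 and 13.5 FPKM in the chemostat cultures of IMD010 and CBS11895, a difference of effects of -2.61 (FDR = 0.00552, and -2.46 with replicate 2 alone). For HPODL_01129 the difference was -3.16 (FDR = 0.000223), and -2.75 with replicate 2 alone. The mitochondrial aldehyde dehydrogenase gene HPODL_00824 fell in IMD010, with 0.478 and 0.566 FPKM in batch and 16.4 and 9.71 FPKM in chemostat cultures. In CBS11895 it had 1.06 and 2.69 FPKM in batch and 2.69 and 1.96 FPKM in chemostat cultures, which overlap, and the effects differed by -2.91 (FDR = 0.000574, and -2.56 with replicate 2 alone). HPODL_01785 (THI13, thiamine synthesis) and HPODL_01144, annotated as a resistance gene for acids and azoles, rose in CBS11895 by 2.67 and 2.80, with changes of -0.19 and 0.16 in IMD010 (differences -2.86 and -2.64). The IMD010 changes with replicate 2 alone were 0.26 (FDR = 0.238) and 0.59 (FDR = 0.00134), and the differences -2.41 and -2.21.

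Among genes with a product name, the largest positive differences were in short genes that fell steeply in CBS11895. Histone H4 (HPODL_01892) had 4191 and 4213 FPKM in IMD010 batch cultures and 1116 and 6291 FPKM in IMD010 chemostat cultures, against 138 and 180 FPKM in CBS11895 batch and 6787 and 7137 FPKM in CBS11895 chemostat cultures. The difference of the effects was 6.12 (FDR = 0.000233), and 4.88 with replicate 2 alone, when the IMD010 effect itself was -0.58 (FDR = 0.00888). CWC24 (HPODL_01518), prefoldin subunit 4 (HPODL_01279), the centrin gene CDC31 (HPODL_01424) and the Sm-like gene LSm4 (HPODL_00774) gave differences of 6.90, 5.96, 5.52 and 5.31, and of 4.97, 4.75, 4.37 and 4.20 with replicate 2 alone. In these 4 genes the IMD010 effect with replicate 2 alone was between -0.23 and 0.26, with FDR values of 0.082 to 0.875. The 5 genes are between 312 and 508 bp long. As a group, all 8 histone genes, 21 of 29 cytosolic ribosomal protein genes and 26 of 44 ribosome biogenesis genes had a positive difference at the broad call, while all 9 amino acid permease genes had a negative one, beside 26.4% and 29.9% of all genes tested. These counts with replicate 2 alone were 8, 20 and 23 positive and 7 negative, beside 20.2% and 17.8%.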

How the data were processed

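Libraries from polyadenylated RNA (TruSeq RNA V2) of 16 bioreactor samples had been sequenced. The authors aligned reads to the CBS11895 RefSeq assembly with STAR 2.5.3a, discarded ambiguously placed reads, counted per gene with HTSeq and deposited FPKM values, naming edgeR among their tools. The deposited FPKM values of a gene moved in steps of 1 read, and whole reads (within 0.02) were recovered for 100% of values above 0 in 5400 of 5408 genes, while 8 genes were at 0 throughout. Recovered reads summed to 16522183 to 20898682 per sample. The divisor of a gene in the deposited FPKM values was not its length. It ran from 1 to 1120, was whole for 5398 genes, and followed the place of the length when lengths are sorted as text (Spearman 0.986). FPKM values were therefore recomputed from recovered reads and annotated gene spans, a change made after the files were seen.

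TMM factors (trims of 30% and 5%) were applied, genes with a group mean of at least 10 FPKM kept, and log2 (FPKM + 1) tested with limma 3.58.1 in R 4.3.3 as 8 groups, with Benjamini-Hochberg adjustment. With 2 cultures a group, independent bioreactor duplicates per the series text, their number more than the depth limits the precision. The fitting script was tested on simulated data. Product names came from the study's supplementary data and cover 1999 genes, so gene groups are partial. The members and gene lists were chosen with earlier results of these data known. Named genes were the essential complex I subunits, the NDH2 genes and the oxygen-defense genes, the 10 strongest strict calls with a product name and 3 of any kind in each direction that kept a broad call with replicate 2 alone (8 such genes were higher), up to 3 leading members of each list, and the 5 extremes of the strain difference and of the chemostat replicate difference. The strict calls named were also required to have both batch cultures above or below both chemostat cultures. The report gives a selection of the list members and replicate extremes. Alternatives were other size factors, pseudocounts of 0.1 and 5, no filter, smaller fits, a replicate block, sample weights, removal of a length trend (local regression, span 0.3), voom, omission of each culture and, added later, the deposited FPKM values.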

Additional observations from a re-analysis of the deposited data

Results flagged for a closer look

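The effect of batch growth differed between IMD010 and CBS11895 by the interaction test of limma (absolute difference above 1 at an FDR under 0.05) in 1349 genes with a positive and 1529 genes with a negative difference. Among the genes named for the respiratory chain and oxygen defense, the difference, IMD010 effect minus CBS11895 effect on the log2 scale, was -2.71 for NDH2-1 (HPODL_02792), -1.03 for NDH2-2 (HPODL_00256), -1.25 for NDH2-3 (HPODL_02018), -2.09 for NUGM (HPODL_03393) and -1.42 for NUKM (HPODL_02758). It was -1.93 for AHP1 (HPODL_00398), -1.93 for TSA1 (HPODL_00527), -1.29 for HPODL_03894, 2.07 for the peroxiredoxin gene HPODL_00254 and 1.82 for the superoxide dismutase gene HPODL_01414. With replicate 2 alone the difference was -0.91 for HPODL_03894, -0.78 for NDH2-2, -0.80 for NDH2-3 and -0.86 for NUKM, all short of the broad call, and -1.30 for AHP1.

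Among the genes with the most different effects, it was 6.90 for CWC24 (HPODL_01518), 6.12 for histone H4 (HPODL_01892), 5.96 for prefoldin subunit 4 (HPODL_01279), 5.52 for CDC31 (HPODL_01424) and 5.31 for LSm4 (HPODL_00774). In the other direction it was -3.16 for the myo-inositol transporter gene HPODL_01129, -2.91 for the aldehyde dehydrogenase gene HPODL_00824, -2.86 for THI13 (HPODL_01785), -2.64 for HPODL_01144 and -2.61 for HXT3 (HPODL_00453). The CBS11895 effect, which enters each of these values, had a median of -1.62 over genes of up to 300 bp. The IMD010 effect had a median of 0.12 over the same genes, and of -0.17 with replicate 2 alone. The part of gene length in the differences was not tested gene by gene.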

How the results depend on the processing

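Counts of calls depended on the samples fitted, the chemostat culture used and, for strain differences, the TMM factors. Higher genes at the strict call numbered 20, against 13 with a pseudocount of 5, 0 in a fit of the 4 samples, 6 in a fit of the 8 IMD010 samples, 0 with sample weights (0.0386 for each of the 2 chemostat libraries) and 31 with the length trend removed. Lower genes at the strict call numbered 189, against 0 in the fit of 4 samples and 31 with sample weights. At the broad call, the higher genes (10.6% of those tested) numbered 25, 358 and 107 in the fits of 4 and 8 samples and with sample weights, and 642 lower genes became 186 and 246 in the fit of 4 samples and with sample weights. In the fit of 4 samples 1292 genes had an unadjusted p-value under 0.05. Negative strain differences fell to 792 without TMM factors, against 1529. Omission of each culture in turn gave 14 to 248 and 158 to 268 genes at the strict call (higher and lower), 308 to 1081 and 507 to 982 at the broad call, and 1031 to 1536 positive and 908 to 1863 negative strain differences. The highest of each of these 6 ranges came without chemostat replicate 2. The deposited FPKM values, tried after seeing the data, gave 24 and 211 genes at the strict call. The strain difference could not be fitted with IMD010 samples alone.

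With a replicate block, counts were 22 and 188 at the strict call, and 1184 of 1185 broad calls were shared. The labels and the paper do not say whether replicate numbers pair the samples. Deviations of same-numbered samples correlated with r between -0.38 and 0.43 over 28 pairs of groups, above 0.1 in 8 of them. Such correlations cannot decide whether cultures were linked.

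For 95 genes under 16 alternatives, 1370 of 1520 values were counted as unchanged and kept their side of an FDR of 0.05. Another 129 lost an FDR under 0.05, 18 gained it and 3 reversed. A change of sign counted as a reversal only where at least 1 of the 2 FDR values was under 0.05. The unchanged values thus include changes of sign, such as 0.89 to -0.23 for LSm4 (HPODL_00774) without chemostat replicate 1. Reversals occurred without chemostat replicate 1, to -0.43 for HPODL_00254 (0.51 without replicate 2), 0.40 for HPODL_00815 (-1.36) and -0.58 for histone H4 (HPODL_01892, 1.91).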
